A study of Homo sapiens with 8 samples.

Results

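The PMP22 family of small membrane proteins was described in Alexander1 cells, an established human hepatocellular carcinoma line: EMP1, EMP2 and EMP3 (epithelial membrane proteins), PMP22 (peripheral myelin protein) and LIM2 (a lens fibre membrane protein). The 5 genes were chosen by name, with EMP2 leading because of its difference between the groups of these same libraries, and all 5 were found among the 58206 genes of the count table. In all, 2 groups were sequenced as mRNA libraries. The parental group holds 4 libraries of the line as obtained, labelled wt (Axin1 -), whose own Axin1 lacks the region that binds the kinase GSK3, so that canonical Wnt signalling is always on. The other group holds 4 libraries labelled Axin1 +, from a stable derivative that received full-length Axin1 on a plasmid through a retroviral transfer, followed by hygromycin B selection of clones. How many clones the derivative represents, and whether the parental cells went through the same selection, is not given in the sources used here. Because the members were picked with this contrast in view, their differences are given as descriptions, without a test.

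PMP22 family proteins cross the membrane several times, with both ends in the cytoplasm and an extracellular loop that carries conserved tryptophan and cysteine residues shared with the claudins. PMP22 is a structural protein of compact myelin, and a change in its gene dosage causes inherited neuropathies. EMP2 is found in epithelia, where it has been reported to associate with integrins, focal adhesion kinase and caveolin at the cell surface. Since the series is about integrin and focal adhesion biology under Wnt signalling, the family sits close to its theme.

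The libraries held between 11232951 and 26400782 counts, and the restored-labelled ones were the deeper group (82896611 counts in all, against 52715458 in the parental libraries). Levels are given as CPM, counts relative to the TMM-scaled library total, and 3 counts corresponded to between 0.107 and 0.267 CPM. AXIN1, the gene the design set out to restore, was not higher in the libraries labelled as restored (45.4 CPM ± 5.13 against 52.4 CPM ± 3.49 in the parental ones, SD, n = 4 each; edgeR adjusted p = 0.267), so the groups are named here by their labels. The deposited counts do not separate AXIN1 reads of the line's own gene from those of the transferred copy. Hepatocyte markers were expressed in every library, with all 10 listed genes tested, 2 of them higher and 3 lower in the restored-labelled libraries (edgeR adjusted p under 0.05). Among all tested genes, 10.4% were higher and 8.77% lower at this threshold. The summed level of the 10 markers was 23669 to 27912 CPM in the parental and 18167 to 21679 CPM in the restored-labelled libraries, which did not overlap. Of the markers of other cell types, PECAM1 was the 1 of 4 endothelial genes that could be tested, and the summed endothelial level was 34.1 to 58.5 CPM in the restored-labelled and 4.58 to 6.77 CPM in the parental libraries; the other 3 endothelial genes had at most 6 counts in any library. Parental replicate 1 stood apart, differing more in its counts from the other parental libraries (chi-square per degree of freedom of 57.7 to 92.0) than those differed among themselves (9.38 to 19.7). Restored-labelled replicate 1 stood apart as well, at 50.3 to 60.9 from the others, which gave 19.4 to 40.8 among themselves. It was also the deepest library, at 26400782 counts, and the size of this measure was not adjusted for depth. Fibroblast markers summed to at most 4.41 CPM and leukocyte markers to at most 0.712 CPM. The part of other cells in the results below was not tested. In bulk RNA, fewer cells of a type and less RNA per cell cannot be told apart.

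The upstream sequences of the members that stood higher in the restored-labelled libraries, EMP2 and PMP22, are shown first, because the design turns on a pathway whose nuclear end is the TCF/LEF family of DNA-binding factors. The sequences are from RefSeq on GRCh38.p14 and run 5′ to 3′ on the strand of the gene, each covering the 250 bases before an annotated start. Capitals mark letters that match the TCF/LEF core, CTTTG followed by 2 letters that are each A or T, or the GC box (GGGCGG), on either strand.
EMP2, chr16:10580599-10580848, minus strand: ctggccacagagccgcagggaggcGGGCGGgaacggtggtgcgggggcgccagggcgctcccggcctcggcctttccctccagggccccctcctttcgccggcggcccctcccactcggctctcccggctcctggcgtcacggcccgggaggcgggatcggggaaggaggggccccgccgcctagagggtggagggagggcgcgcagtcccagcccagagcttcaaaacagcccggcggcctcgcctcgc
PMP22 start 1, chr17:15265327-15265576, minus strand: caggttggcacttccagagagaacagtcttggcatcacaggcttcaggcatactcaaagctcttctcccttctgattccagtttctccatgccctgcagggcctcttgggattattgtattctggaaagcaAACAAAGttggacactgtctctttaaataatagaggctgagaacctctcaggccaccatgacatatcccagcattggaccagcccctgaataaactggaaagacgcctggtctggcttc
PMP22 start 2, chr17:15262553-15262802, minus strand: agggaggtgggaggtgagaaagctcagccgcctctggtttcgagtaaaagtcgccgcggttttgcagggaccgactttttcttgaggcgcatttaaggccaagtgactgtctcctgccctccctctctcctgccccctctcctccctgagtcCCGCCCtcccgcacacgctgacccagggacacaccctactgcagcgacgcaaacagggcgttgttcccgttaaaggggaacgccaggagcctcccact
PMP22 start 3, chr17:15260821-15261070, minus strand: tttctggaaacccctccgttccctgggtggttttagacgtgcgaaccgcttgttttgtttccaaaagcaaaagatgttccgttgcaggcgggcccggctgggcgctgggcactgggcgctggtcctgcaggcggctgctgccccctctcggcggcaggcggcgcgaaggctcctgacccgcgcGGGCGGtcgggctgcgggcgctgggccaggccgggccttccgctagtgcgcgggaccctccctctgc

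The EMP2 window was 77.2% G and C, above 93.2% of the 35116 windows in the same table, and held 1 GC box and 0 TCF/LEF matches. Of the 3 PMP22 windows, start 1 was 48.8% G and C and held the TCF/LEF match, 119 bases before the start. The windows of starts 2 and 3 were 61.2% and 69.6% G and C, and each held 1 GC box and 0 TCF/LEF matches. A TCF/LEF match occurred in 12.0% and a GC box in 42.6% of all windows. These letters describe the windows and no binding was measured. The RefSeq table held at least 1 window for each of the 5 members. Of those not shown, EMP1 held 1 TCF/LEF match and 1 GC box in a window of 42.4% G and C. It also held 2 matches to the AP-1 site TGANTCA, present in 6.57% of windows. The first EMP3 window held the TATA letters TATAAA (10.7% of windows) and a GC box, and its second start and LIM2 held matches to none of these 4 motifs.

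EMP2 carried most of the difference in the family. EMP2 (ENSG00000213853) lies on chromosome 16, from 10528422 to 10580698 on the minus strand of GRCh38. It stood at 5.07, 3.59, 4.37 and 5.37 CPM in parental replicates 1 to 4 and at 45.4, 52.4, 52.3 and 50.3 CPM in the restored-labelled ones. The groups lay far apart: the lowest restored-labelled library was 8.47 times the highest parental one, while the parental libraries differed among themselves by a factor of 1.50 and the restored-labelled ones by 1.15. The means were 4.60 CPM ± 0.794 and 50.1 CPM ± 3.27 (SD, n = 4 each), a ratio of 10.9, and the log2 fold change was 3.45 (SE 0.16). Both levels rest on many reads, 49 to 75 counts in each parental and 635 to 1289 in each restored-labelled library. By log2 fold change EMP2 ranked 96 of 14289 tested genes, and 11 of the 12999 that had a mean of at least 1 CPM in both groups.

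PMP22 followed in the same direction at a much lower level. PMP22 (ENSG00000109099; chromosome 17, 15229777 to 15265357, minus strand) stood at 1.07, 0.474, 0.891 and 0.716 CPM in parental replicates 1 to 4 and at 2.01, 1.40, 1.87 and 2.03 CPM in the restored-labelled ones. The groups did not overlap, although the nearest libraries were only 1.31-fold apart. The means were 0.787 CPM ± 0.254 and 1.83 CPM ± 0.292 (SD, n = 4 each), 1.24 ± 0.32 (SE) as a log2 fold change. It rests on 7 to 12 counts per parental and 17 to 56 counts per restored-labelled library. PMP22 passed the filter on low counts through the restored-labelled libraries, since the parental libraries alone would not have met it.

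EMP3 did not separate the groups. EMP3 (ENSG00000142227; chromosome 19, 48321509 to 48330553, plus strand) is expressed in many cell types and has been studied in gliomas. It stood at 7.39, 3.18, 2.05 and 0.787 CPM in parental replicates 1 to 4 and at 3.98, 5.04, 3.30 and 3.36 CPM in the restored-labelled ones. The parental libraries spanned the whole restored-labelled range, with replicate 1, the library that stood apart in its counts, above and replicates 2 to 4 below it. Among parental libraries the highest was 9.38 times the lowest, against 1.53 times among the restored-labelled ones. The means were 3.35 CPM ± 2.86 and 3.92 CPM ± 0.806 (SD, n = 4 each), 0.23 ± 0.51 (SE) as a log2 fold change. That value rested on single libraries, at 0.95 without parental replicate 1, 0.54 with the replicate number as a block, 0.35 with total counts only, 0.05 without parental replicate 3, 0.10 without restored-labelled replicate 2 and -0.10 without parental replicate 4.

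EMP1 and LIM2 were close to undetected. EMP1 (ENSG00000134531; chromosome 12, 13196716 to 13219939, plus strand), which is widespread in squamous and other epithelia, had 0 counts in each parental library and 2, 2, 0 and 0 counts in restored-labelled replicates 1 to 4. Over the 52715458 parental counts, 0 reads give an exact Poisson 95% interval that reaches 0.06998 CPM on unscaled totals (0.0569 CPM for 3 counts). The 4 restored-labelled reads give 0.0483 CPM (exact Poisson 95% interval 0.0131 to 0.124, both for counting error only). LIM2 (ENSG00000105370; chromosome 19, 51379909 to 51387960, minus strand) had 1 count in restored-labelled replicate 2 and 0 in the other 7 libraries. Neither gene passed the filter on low counts, and no fold is given for them. At this depth a difference between levels this close to 0 was not detectable. Of 6 lens fibre genes examined, CRYAA, CRYBA1 and BFSP2 also had no count in any library, and BFSP1, the 1 that could be tested, fell from a mean of 3.30 ± 0.923 to one of 1.66 ± 0.34 CPM (SD, n = 4 each; edgeR adjusted p = 0.0370).

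Of the 5 members, 3 passed the filter and 2 of these, EMP2 and PMP22, had groups that did not overlap, both higher in the restored-labelled libraries. Among all 14289 tested genes, 23.9% had non-overlapping groups and 12.7% in that direction, and nothing is read from the comparison because the members were chosen on this contrast.

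**Figure D1:**
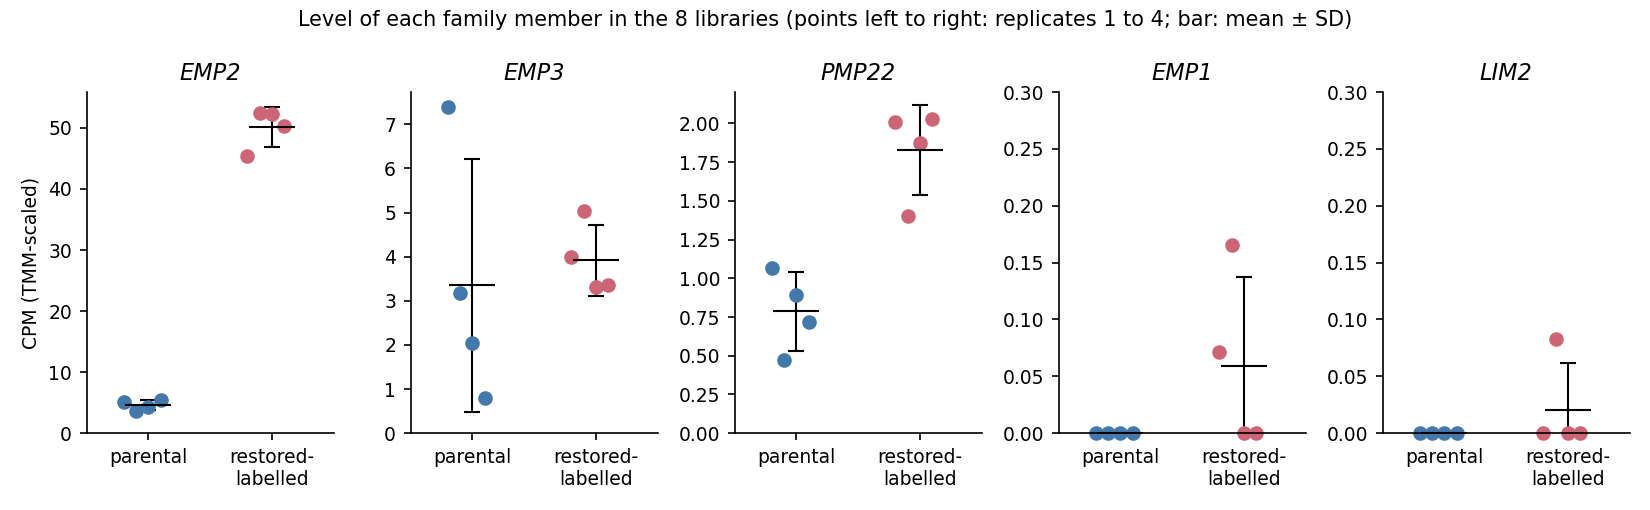
CPM of EMP2, EMP3, PMP22, EMP1 and LIM2 in each library, with 1 point per library and the mean ± SD of the 4 libraries per group; each panel has its own axis from 0. EMP2 lies between 3.59 and 5.37 CPM in the parental and between 45.4 and 52.4 CPM in the restored-labelled libraries, PMP22 separates at a far lower level, EMP3 overlaps, and EMP1 and LIM2 sit at or near 0.

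To compare genes with each other, CPM was divided by the length of all annotated exons of a gene merged together, which is 8.72 kb for EMP2, 1.67 kb for EMP3 and 3.22 kb for PMP22. On this per-length scale the leading member of the family changed between the groups. In the parental libraries EMP3 stood at 2.01 CPM per kb ± 1.72, EMP2 at 0.527 ± 0.0911 and PMP22 at 0.244 ± 0.0787 (SD, n = 4). The order of EMP3 and EMP2 did not hold in every parental library, since replicate 4 had 0.472 CPM per kb of EMP3 and 0.616 of EMP2. In the restored-labelled libraries EMP2 stood at 5.75 CPM per kb ± 0.375, EMP3 at 2.35 ± 0.483 and PMP22 at 0.568 ± 0.0906 (SD, n = 4), and that order held in all 4 of them. EMP1 and LIM2 followed at 0.00755 and 0.0209 CPM per kb, which do not differ beyond their spread.

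As a share of the summed per-length level of the 5 genes, EMP2 made up 10.9%, 16.7%, 25.0% and 47.0% in parental replicates 1 to 4, and 63.3%, 62.8%, 70.1% and 68.6% in the restored-labelled ones. The wide parental range mirrored EMP3, whose share went from 82.9% in replicate 1 to 36.0% in replicate 4. The summed level was 1.31 to 5.34 CPM per kb in the parental and 8.23 to 9.57 CPM per kb in the restored-labelled libraries. Among all tested genes, the per-length level of EMP2 was above 11.2% of genes in the parental and above 56.6% in the restored-labelled group, while PMP22 went from above 4.79% to above 11.5% and EMP3 from above 32.7% to above 35.3%. EMP2 was thus a gene of middle rank in the restored-labelled libraries, and PMP22 remained a low one in both.

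**Figure D2:**
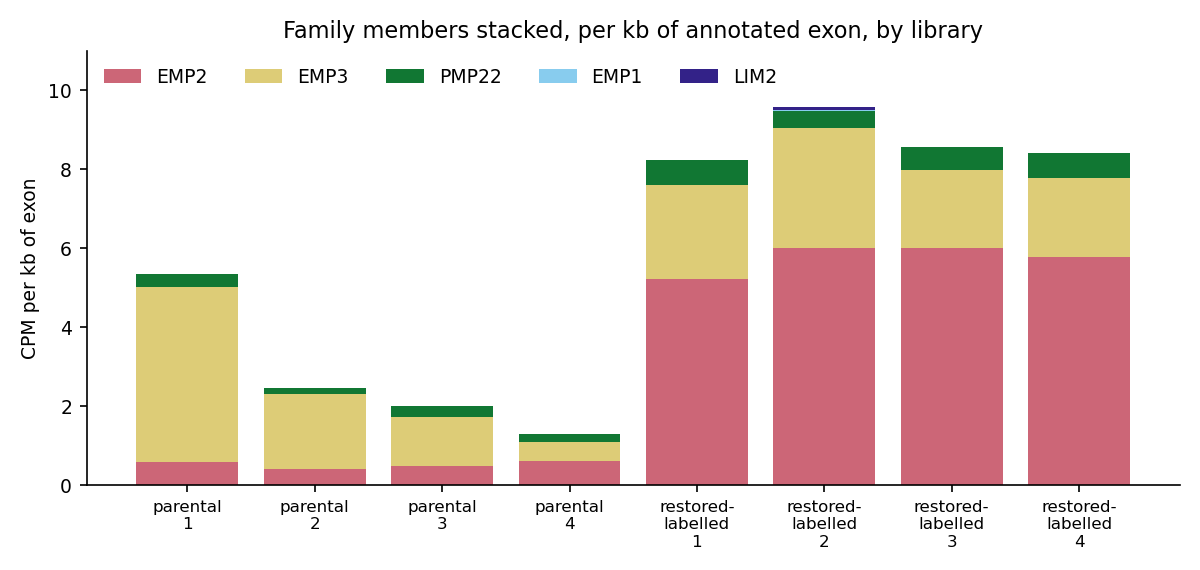
Stacked level of the 5 family members in each library, in CPM per kb of annotated exon. EMP3 is the tallest segment in parental replicates 1 to 3 and EMP2 in parental replicate 4, and EMP2 is the tallest in all 4 restored-labelled libraries, where it makes up 62.8% to 70.1% of the sum.

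The annotation was searched for reads that the counting could have assigned to the wrong gene. Of the distinct 50-base stretches in the annotated EMP2 transcripts, 1.73% recur on the same strand in transcripts of other genes, and 0 of those genes is another member of the family; for EMP1, EMP3, PMP22 and LIM2 the share was 0%. As the reverse complement, 6.59% of the EMP2 stretches recur in 155 other genes, 9.19% of those of EMP3 in ODAD1 and 6.68% of those of PMP22 in ENSG00000279660, against 0% for EMP1 and LIM2. On the opposite strand, 533 bases of EMP2 exons overlap the antisense gene ENSG00000256013, which had 0 counts in each parental and 1 to 4 counts in each restored-labelled library. EMP3 overlaps ODAD1 by 217 bases, and ODAD1 had 2 to 17 counts per library. PMP22 overlaps ENSG00000279660, which had 0 counts in every library. The sources used here do not say if the counting was stranded, so reads of a gene and its antisense partner cannot be told apart.

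The difference of EMP2 varied little with the processing. Its log2 fold change lay between 3.34 (without parental replicate 2) and 3.53 over the 14 alternative settings, and that of PMP22 between 1.05 (without parental replicate 2) and 1.42 (without parental replicate 1). Without restored-labelled replicate 1 the values were 3.49 for EMP2, 1.20 for PMP22 and 0.22 for EMP3, and without parental replicate 1 EMP2 was at 3.49. With all libraries thinned to the lowest total, which removes the difference in depth between the groups, the values were 3.43 for EMP2, 1.18 for PMP22 and 0.25 for EMP3.

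**Figure D3:**
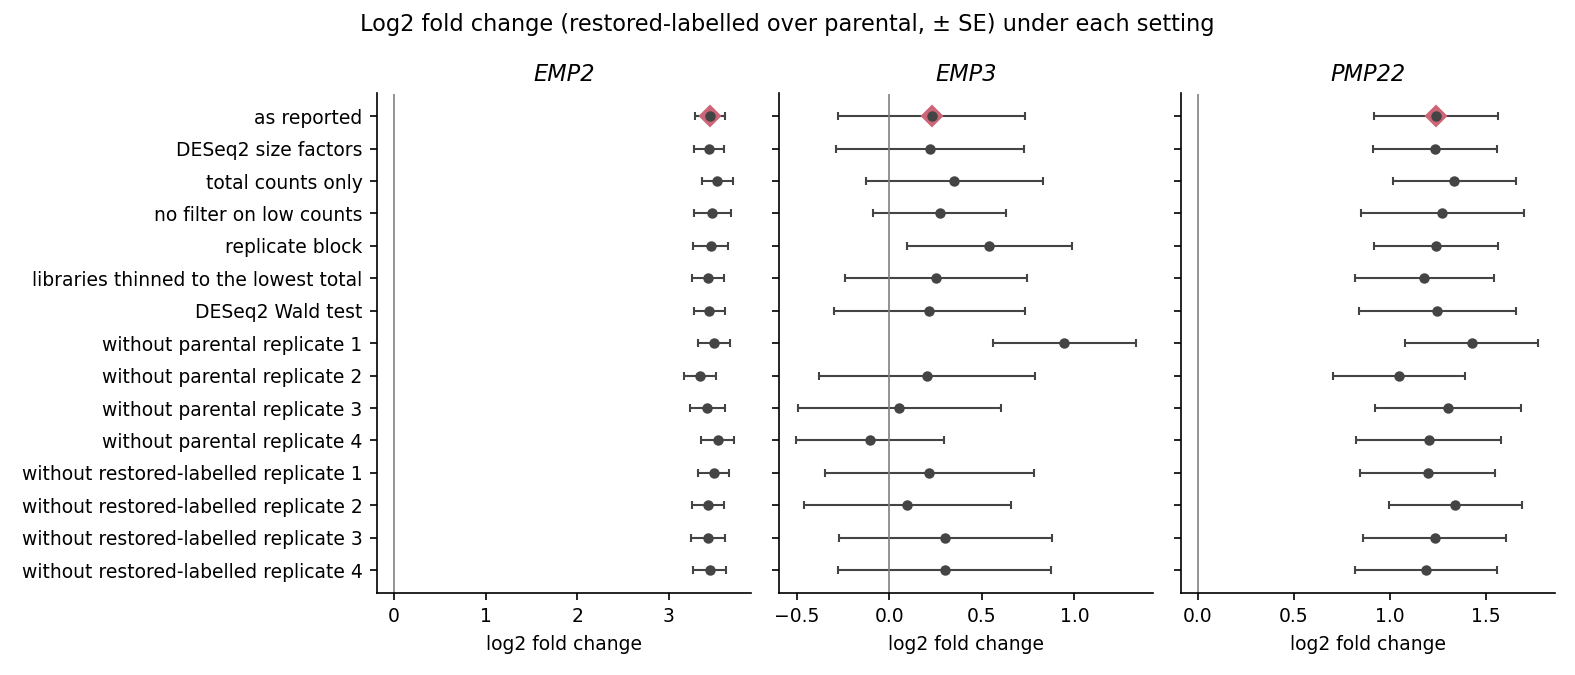
Log2 fold change of EMP2, EMP3 and PMP22, restored-labelled over parental, as reported (diamond) and under each of 14 alternatives (points), with bars for 1 SE; the x axis differs between panels and the grey line marks 0. EMP2 stays between 3.34 and 3.53 and PMP22 between 1.05 and 1.42, whereas EMP3 runs from -0.10 to 0.95 as single parental libraries are left out.

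Neighbouring genes were compared next, since whole chromosome regions can shift together in a cell line. The 20 tested genes nearest to EMP2 by gene start, 10 on each side, had 0.11 as their median log2 fold change, with values from -0.97 to 1.26, all below that of EMP2. Of these, 3 rose and 3 fell at an edgeR adjusted p under 0.05, where 19.2% of all tested genes did so in either direction. Because EMP2 was chosen for its difference in these same libraries, its place above its neighbours is no test of a regional shift. The gene next to EMP2 on the left, ATF7IP2, rose, from a mean of 5.56 ± 1.24 to one of 13.4 ± 3.49 CPM (SD, n = 4 each), 1.26 ± 0.25 (SE) as a log2 fold change (edgeR adjusted p = 0.0062). The one on the right, NUBP1, which encodes an iron-sulfur assembly factor, rose, from a mean of 28.8 ± 2.73 to one of 39.1 ± 4.59 CPM, 0.44 ± 0.14 (SE) as a log2 fold change (edgeR adjusted p = 0.0432). The third that rose, named after its value was seen, was LITAF, which encodes a protein of late endosomes and lysosomes and, like PMP22, is mutated in an inherited demyelinating neuropathy; its log2 fold change was 1.09 (SE 0.14, edgeR adjusted p = 0.00056).

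Taken over both sides, the genes around PMP22 showed no common direction. The median log2 fold change of its 20 neighbours was -0.02, with values from -1.83 to 3.04. Of these, 2 rose and 2 fell, where 10.4% of all tested genes rose and 8.77% fell. The next tested genes were the ribosomal protein pseudogene RPS18P12, with -0.42 ± 0.45 (SE) as a log2 fold change (edgeR adjusted p = 0.545), and TVP23C, with 0.67 (SE 0.31, edgeR adjusted p = 0.161), neither past the threshold. On the left, the nearest 6 tested genes all had log2 fold changes below 0, from -1.83 to -0.22. Those farther left ran from -0.04 to 3.04, and those on the right from -0.27 to 0.67. Around EMP3 the median over 20 neighbours was 0.31, with 3 genes that rose and 0 that fell, beside the same shares of all tested genes. The adjacent CARD8-AS1 and TMEM143 had log2 fold changes of 0.92 (SE 0.31, edgeR adjusted p = 0.0573) and 0.34 (SE 0.18, edgeR adjusted p = 0.208). For EMP1 and LIM2, themselves at or near 0, the neighbour medians were -0.09 and 0.28. Only tested genes were taken as neighbours, so these values do not show whether the genes around a member were expressed. NKG7, which lies between CLDND2 and LIM2, and GSG1, to the left of EMP1, had no count in any library.

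**Figure D4:**
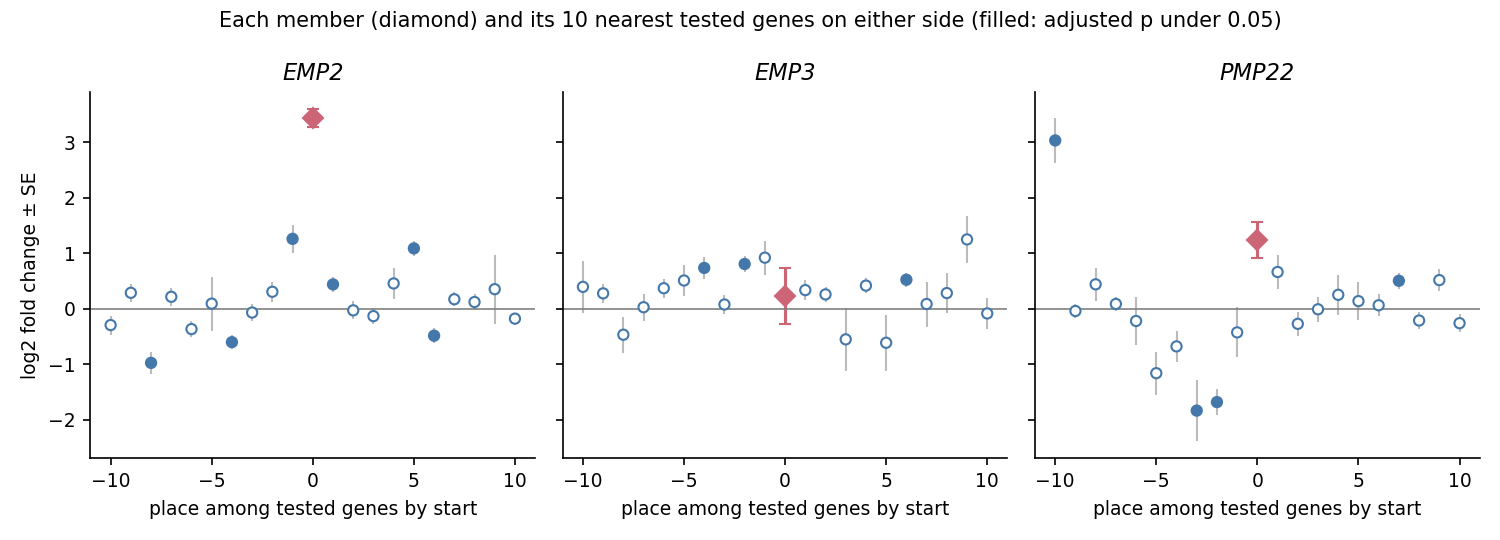
Log2 fold change ± SE of EMP2, EMP3 and PMP22 (diamonds) and of the 10 nearest tested genes on either side (circles), by place in order of gene start; filled circles have an adjusted p under 0.05. EMP2, at 3.45, lies above all 20 of its neighbours, of which the highest is 1.26, whereas EMP3 and PMP22 each lie within the range of their own. EMP2 was chosen for its difference in these libraries, so its place is a description only.

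PMP22 family proteins share a domain with a wider group of membrane proteins. A list of 21 such relatives outside the claudins was taken: PERP, the CLDND and TMEM proteins, NKG7, the GSG1 proteins, and the gamma subunits that accompany calcium channels and AMPA receptors. Of these, 8 were tested, 3 rose, 0 fell and 5 did not pass the threshold, against 10.4% higher and 8.77% lower among all tested genes. Their median log2 fold change was 0.20, beside 0.0026 for all tested genes. A further 7 relatives, among them NKG7 and CACNG2, had no count in any library.

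CACNG7 and CACNG8, which encode gamma subunits of the kind that bind AMPA receptors and lie side by side on chromosome 19, both rose, but CACNG7 passed the filter on low counts through the restored-labelled libraries alone, so its call is no support for the list. CACNG7 had 3, 3, 0 and 0 counts in parental replicates 1 to 4 and 75, 28, 64 and 58 in the restored-labelled ones, a ratio of pooled rates of 23.8 (exact 95% interval 10.8 to 65.7, counting error only). CACNG8 rose, from a mean of 6.48 ± 1.34 to one of 13.5 ± 3.59 CPM (SD, n = 4 each), 1.05 ± 0.23 (SE) as a log2 fold change (edgeR adjusted p = 0.0105), while the adjacent CACNG6 had 0.12 ± 0.37 (SE) as a log2 fold change (edgeR adjusted p = 0.845).

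PERP, an epithelial junction protein of desmosomes and a target of p53, had the highest level per length of the tested relatives. It stood at 202, 376, 393 and 402 CPM in parental replicates 1 to 4 and at 558, 506, 482 and 627 CPM in the restored-labelled ones, so that parental replicate 1 was low and the groups did not overlap. Its log2 fold change was 0.66 (SE 0.21, edgeR adjusted p = 0.0457). The call was lost in 9 of 14 alternatives, with an adjusted p of 0.0061 to 0.131 over them: it was lost when any 1 of parental replicates 2 to 4 or of the 4 restored-labelled replicates was left out, with total counts only and with the replicate number as a block. CLDND1, CLDND2 and TMEM178B had the highest mean CPM of the relatives that did not pass, at log2 fold changes of -0.11, 0.26 and -0.10 (SE 0.15, 0.30 and 0.24). TMEM47, which did not pass the filter on low counts, had 0, 0, 2 and 0 counts in parental replicates 1 to 4 and 17, 13, 26 and 44 in the restored-labelled ones, and is named because of these values.

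Proteins reported to bind or act with EMP or PMP22 proteins formed a list of 19 genes, of which 17 were tested. Of these, 4 rose, 1 fell and 12 did not pass the threshold, against 10.4% higher and 8.77% lower among all tested genes. Their median log2 fold change was 0.19, beside 0.0026 for all tested genes. The list holds genes whose change in these libraries was already known when it was written, ITGB1, ITGA6 and CAV1 among them, and is no independent evidence.

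The surface partners of EMP2 moved in both directions. ITGB1, the integrin beta subunit of the series title, rose from 224, 466, 544 and 455 CPM in parental replicates 1 to 4 to 984, 602, 883 and 1185 CPM in the restored-labelled ones (edgeR adjusted p = 0.0178, and 0.0610 without restored-labelled replicate 4). CAV1, the caveolin that coats caveolae, fell from values of 15.9, 41.0, 32.7 and 38.0 CPM to values of 8.64, 2.97, 2.32 and 3.44 CPM, -2.85 ± 0.42 (SE) as a log2 fold change (edgeR adjusted p = 0.0014), and -3.45 without restored-labelled replicate 1. Focal adhesion kinase (PTK2) and SRC, reported downstream of EMP2, had log2 fold changes of -0.03 (SE 0.13; edgeR adjusted p = 0.911) and 0.19 (SE 0.11; edgeR adjusted p = 0.250). ITGAV had 0.31 ± 0.29 (SE) as a log2 fold change (edgeR adjusted p = 0.486), its partner ITGB3 had at most 2 counts in any library, and ITGB5, at 235 CPM ± 46.6 and 231 CPM ± 27.9 (SD, n = 4 each), differed by less than its spread. HIF1A and VEGFA, reported to follow EMP2 in angiogenic signalling, had log2 fold changes of 0.70 (SE 0.29, edgeR adjusted p = 0.122) and 0.18 (SE 0.12, edgeR adjusted p = 0.311).

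Myelin genes were examined beside PMP22. Of 6 Schwann cell and myelin genes, MBP and PRX were tested and did not pass the threshold, MAG and S100B had no count in any library, and the others had at most 5 counts. Among the partners of PMP22, ITGA6, the laminin-binding integrin subunit, rose, from a mean of 37.6 ± 12.4 to one of 119 ± 27.8 CPM (SD, n = 4 each; edgeR adjusted p = 0.0014), and its partner ITGB4 had -0.36 ± 0.50 (SE) as a log2 fold change (edgeR adjusted p = 0.650), with 49.5 CPM in restored-labelled replicate 1 and 9.49 to 11.8 CPM in the others. Without that replicate ITGB4 was past the threshold, at a log2 fold change of -1.31 (edgeR adjusted p = 0.0082, against up to 0.896 over the alternatives).

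PMP22 folds poorly and is handled by quality control in the endoplasmic reticulum. CANX (calnexin, a lectin chaperone) rose, from a mean of 769 ± 94.4 to one of 1621 ± 368 CPM (SD, n = 4 each), 1.08 ± 0.18 (SE) as a log2 fold change (edgeR adjusted p = 0.0024). RER1, a retrieval receptor, and SYVN1, a ubiquitin ligase, did not pass, at 0.07 (SE 0.16) and -0.18 (SE 0.18). ERBB2, the receptor tyrosine kinase, rose, from a mean of 92.9 ± 6.45 to one of 124 ± 8.79 CPM (SD, n = 4 each), 0.42 ± 0.11 (SE) as a log2 fold change (edgeR adjusted p = 0.0225); the call was lost in 4 of 14 alternatives, namely without parental replicate 2 or 3, without restored-labelled replicate 3 and with the replicate number as a block. Exons of ERBB2, ITGB1, RER1 and SYVN1 overlap those of other tested genes. P2RX7, an ion channel reported to bind several EMP proteins, had no count in any library.

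**Figure D5:**
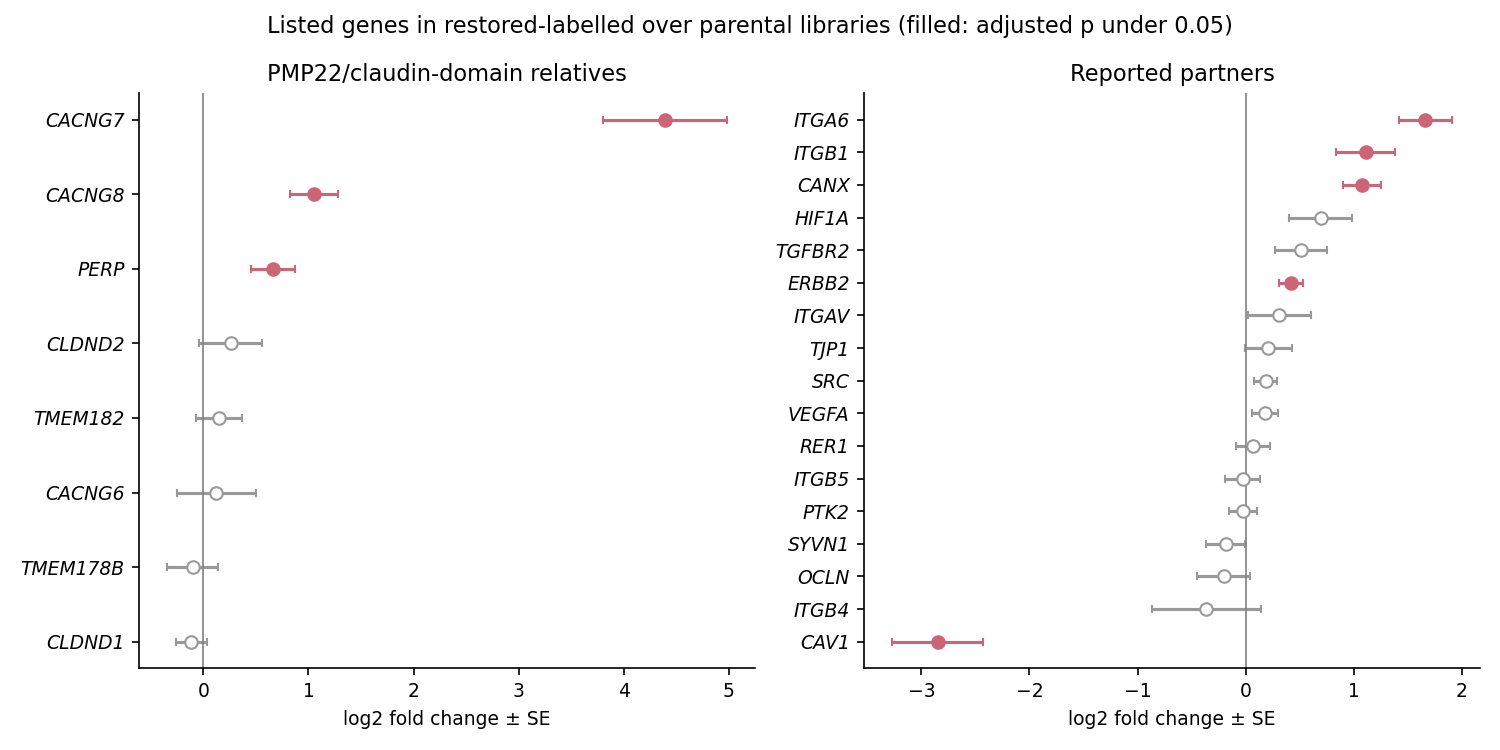
Log2 fold change ± SE, restored-labelled over parental, of the 8 tested relatives (left) and the 17 tested partners (right); filled points have an adjusted p under 0.05. Among the relatives 3 rose, of which CACNG7 had at most 3 counts in each parental library, and among the partners 4 rose and 1, CAV1, fell.

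Genes with the pattern most like that of EMP2 were ranked by Pearson correlation of log2 CPM over the 8 libraries, among 13559 genes with a mean of at least 1 CPM. These correlations are descriptions over libraries of 2 labelled groups that share their scaling, and they include the difference between the labels. The highest were DELE1 (r = 0.996), a mitochondrial stress sensor, TEX11 (r = 0.996), PIPOX (r = 0.994), SMOC1 (r = 0.993) and CDKN1A (r = 0.992), which encodes a cyclin-dependent kinase inhibitor. Their own log2 fold changes were 0.68, 6.52, 2.81, 7.24 and 2.08. After the label means were subtracted, r with EMP2 was 0.938 for DELE1, 0.722 for TEX11, 0.198 for PIPOX, 0.315 for SMOC1 and 0.504 for CDKN1A. A different set led after that subtraction, namely STAC3, TERF1, EIF2S2P4, DRAIC and EXOC3-AS1, with r of 0.943 to 0.981.

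For PMP22 the same ranking was led by LINC02331 (r = 0.985), RAP1GAP2 (r = 0.984) and NFE2L1 (r = 0.982), and within labels by USPL1, CEBPB-AS1 and again NFE2L1, with r of 0.972, 0.951 and 0.951. NFE2L1, a transcription factor of the proteasome stress response, was thus named by both measures. For EMP3, whose values varied among the parental libraries, the leading genes were ABCC3 (r = 0.967), CASP4 (r = 0.965) and TMEM81 (r = 0.964), and within labels CTSS, GAPDHP1 and S100A9 (r = 0.991, 0.9905 and 0.988). CTSS, S100A9 and CASP4 encode a lysosomal protease, a calcium-binding protein and an inflammatory caspase.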

How the data were processed

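Per the submitters' processing notes, bcl2fastq, fastp 0.23.1, STAR 2.7.4 and GRCh38 were used; the counting program, annotation and use of strand are not given in the sources used here. The authors deposited raw counts per Ensembl gene, with no normalization, and 0 columns lacked a sample. Of 58206 identifiers, 57943 were found in GENCODE release 29 (GRCh38), used for positions and exon lengths, and 57495 in a symbol table.

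In R 4.3.3, edgeR 4.0.16 filtered genes (filterByExpr, minimum count 10, minimum total 15), scaled libraries by TMM factors (0.897 to 1.06) and ran the two-sided quasi-likelihood test on all 8 libraries without covariates, with Benjamini-Hochberg adjustment over 14289 genes and a threshold of 0.05. At this threshold 2738 genes differed. Tested genes took between 99.75% and 99.85% of the counts in every library. Log2 CPM for correlations used a prior count of 2. The SE was taken as the size of a log2 fold change divided by the root of its F statistic. Nothing says that replicates were separate cultures, so p-values measure the spread between these samples. The edgeR step was checked on simulated data.

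The members, lists and naming rule were chosen with earlier results of these data known. The rule named the 5 members, AXIN1, each listed gene past the threshold and the 3 most abundant others, the adjacent tested genes, and the 5 genes (3 for EMP3 and PMP22) most correlated with a member; further names were added after their values were seen. A few further genes were taken out of these lists and are not reported here; list sizes and counts are without them. The alternatives were DESeq2 size factors, total counts, no filter, the DESeq2 1.42.0 Wald test, a replicate block, each library left out and, chosen after seeing the data, thinning to 11232951 counts.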

Additional observations from a re-analysis of the deposited data

Results flagged for a closer look

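Among 36 sets of 4 libraries (18 genes in each group), 4 held a library far from the other 3 by Dixon's ratio (gap over range) at its 95% level, which chance exceeds in about 1 of 20 sets. AXIN1 was lowest in restored-labelled replicate 4, at 37.7 CPM against 47.6 to 48.2 CPM in the others. PERP was lowest in parental replicate 1, at 202 CPM against 376 to 402 CPM. CACNG8 was highest in restored-labelled replicate 2, at 18.8 CPM against 11.2 to 12.3 CPM. CANX was highest in parental replicate 3, at 909.7 CPM against 709.7 to 739 CPM. None of these sets belongs to EMP2, EMP3 or PMP22.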

How the results depend on the processing

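EMP2 and PMP22 kept their direction in all 14 alternatives, and neither moved by more than the SD within groups of its log2 CPM (0.191 and 0.347). EMP3 ranged from -0.10 (without parental replicate 4, a reversed direction) to 0.95 (without parental replicate 1) with 1 library left out. The number of genes that differed, 2738, ranged from 1394 (without restored-labelled replicate 4) to 3523 (without parental replicate 1), and was 1508 without parental replicate 2 and 1531 without restored-labelled replicate 3. With total counts only, 1724 genes were higher and 868 lower, against 1485 and 1253. Relatives past the threshold numbered 2 to 4 and partners 4 to 7. The labels do not say whether the replicate number pairs the samples. Same-numbered libraries had correlations of their deviations of -0.0629, 0.00667, -0.0325 and 0.227, against -0.425 to 0.448 among different-numbered ones. So few values cannot show whether same-numbered samples were handled together. With the replicate block 2033 genes differed, and 2 relatives and 4 partners were past the threshold. In that setting EMP2 was at 3.45, EMP3 at 0.54 and PMP22 at 1.24. No fold is given for EMP1 or LIM2 in any setting, since each had at most 2 counts in every library. Depth limits PMP22, EMP1 and LIM2 most, at 12 counts or fewer in each parental library.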
